A study of Mus musculus with 15 samples.

Results

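Bach2 was examined in ATAC-seq libraries, in which the Tn5 transposase marks open DNA, as 73 regions of called accessibility among 83743 kept in all. The regions came from merging the peak lists of 15 libraries, keeping those seen in at least 2 libraries and giving each to the nearest protein-coding gene within 100 kb. The gene was selected on its pattern of called peaks, partly for regions with peaks in wild-type libraries alone, so every comparison of genotypes below is a description without a test. The cells were mouse CD4+ T cells from IRF5+/+ animals (wild type) or IRF5-/- animals (knockout), which lack the interferon regulatory factor IRF5. Untreated cells (0 h) gave 4 wild-type libraries and 3 knockout libraries, numbered 1, 3 and 4 in the sample titles, and cells activated in vitro for 72 h gave 4 libraries of each genotype. The age of the animals, the activating agents and the part of Irf5 that is deleted are not given in the sources used here. The labels call the libraries biological replicates without saying whether they came from separate animals or cultures, so each p-value reflects library spread alone, part or all of which may be technical.

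BACH2 is a transcription factor that pairs with small MAF proteins and represses genes at sites it shares with AP-1 factors such as JUN and BATF. In naive CD4+ T cells it restrains effector genes and holds the cell in a resting state, and its expression falls when the cell is activated through its antigen receptor. The gene also acts in B cells, where it restrains plasma cell differentiation. A called peak marks DNA open to the transposase, not expression of the gene, and a region without a call is not taken as inaccessible. Height here is the number of fragments that cover the summit of a peak per 1000000 filtered fragments, written as fragments per M.

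The libraries held 20.5 M to 29.0 M fragments after duplicates were removed. At 72 h they had more peaks (55519 to 69086, against 29994 to 47790 at 0 h) and a lower share of duplicate fragments (0.14 to 0.17, against 0.17 to 0.29). Knockout library 3 at 0 h stood apart, with the fewest peaks (29994), and results that move with it are also given without it. The Irf5 region at 29526327 to 29528321 on chromosome 6 was called in all 15 libraries, so peaks at Irf5 do not check the genotype labels. Of the CD4+ T cell markers, Cd3e, Cd3d, Cd4, Cd28 and Lck had 47 regions (5 gained and 7 lost at 72 h) and Trac had none. Myeloid markers had 24 regions (4 gained, 4 lost) and CD8 T cell markers 13 (1 gained, 1 lost). Of the B cell markers, Cd79b and Ms4a1 had no region, and Cd79a, Pax5 and Ebf1 had 19, of which Ebf1, the early B cell factor, gained 5 at 72 h. The height summed over B cell marker regions was 11.1 to 14.4 fragments per M in wild-type and 4.59 to 11.7 in knockout libraries at 0 h, and 17.4 to 23.9 and 12.7 to 15.1 at 72 h. The CD4+ T cell marker height was 112.2 to 144.9 in wild-type and 48.8 to 121.6 in knockout libraries at 0 h, and 41.4 to 59.9 and 33.6 to 39.4 at 72 h, and by limma all 9 of these markers' always-called regions fell (median log2 change −1.21). Over all kept regions 18.4% were gained and 4.65% lost at 72 h. Of all always-called regions 66.2% fell, with a median log2 change of −0.67. The B cell and CD4+ T cell marker heights both moved with activation, and their part in the Bach2 results was not tested. Untreated cells were profiled at 0 h alone, so activation cannot be told apart from time in culture.

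Bach2 lies on chromosome 4 from 32238413 to 32586109 (mm10; bounds from the GRCm38.p6 RefSeq table), a gene of 347697 bp with a wide gap before it. The nearest protein-coding gene upstream, Map3k7, which encodes the kinase TAK1, is 214943 bp away, and the connexin gene Gja10 begins 14756 bp downstream. Of the 73 regions, 58 lay inside Bach2, 13 upstream, 1 across the gene start and 1 downstream. Positions below are given in kb from the gene start to the centre of a region. The long noncoding RNA gene Gm42266 lies in the upstream gap and Bach2os lies within the 3′ part of Bach2. The reference table gives gene bounds without exons, so exons and introns cannot be told apart here.

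The RefSeq promoter table places a Bach2 start site at base 32417435, 179.0 kb inside the gene bounds. Its window, chr4:32417185-32417484 on the plus strand (GRCm38.p6), held no peak in any library or pooled list. It is shown as the window that the promoter table gives for Bach2, and it is not at the outer gene start.
Bach2 promoter window: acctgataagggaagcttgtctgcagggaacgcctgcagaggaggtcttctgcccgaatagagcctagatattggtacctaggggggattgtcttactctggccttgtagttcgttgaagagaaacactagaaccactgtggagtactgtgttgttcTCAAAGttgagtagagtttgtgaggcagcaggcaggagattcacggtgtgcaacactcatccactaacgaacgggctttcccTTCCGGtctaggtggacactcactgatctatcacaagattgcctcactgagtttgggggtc
The capitals mark a match to the TCF and LEF letters CTTTGA and a match to the ETS letters CCGGAA, both on the reverse strand. These letters occur in 16.0% and 14.9% of the 32851 promoter windows in the table, searched on both strands. The AP-1 letters TGANTCA (7.81% of windows), the RUNX letters TGTGGT (16.8%) and the forkhead letters TGTTTAC (3.65%) were not in this window. The nearest kept regions ended 3019 bp before it and began 6093 bp after it. Accessibility was instead called in all 15 libraries across the outer gene start, at chr4:32238216-32240333.

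Bach2 was broadly accessible in untreated cells, and its share of called regions did not grow at 72 h as that of the genome did. Wild-type libraries had peaks in 42, 52, 51 and 50 Bach2 regions at 0 h and in 47, 54, 53 and 48 at 72 h, and these ranges overlap. Knockout libraries had peaks in 49, 34 and 40 at 0 h and in 40, 42, 42 and 42 at 72 h, which also overlap. As shares, 66.8% ± 6.27 (SD, n = 4) of Bach2 regions were called in wild type at 0 h and 69.2% ± 4.81 (n = 4) at 72 h, while the share of all kept regions went from 51.9% ± 3.99 to 71.9% ± 4.05. In knockout cells the Bach2 share was 56.2% ± 10.3 (n = 3) at 0 h and 56.8% ± 1.37 (n = 4) at 72 h, against 43.8% ± 9.24 and 64.8% ± 2.62 of all regions. The log2 ratio of the Bach2 share to that of all regions was 0.20 to 0.49 in the untreated libraries and −0.22 to 0.00 in the activated ones, and these ranges do not overlap. Averaged over genotypes, it fell by 0.49.

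**Figure D1:**
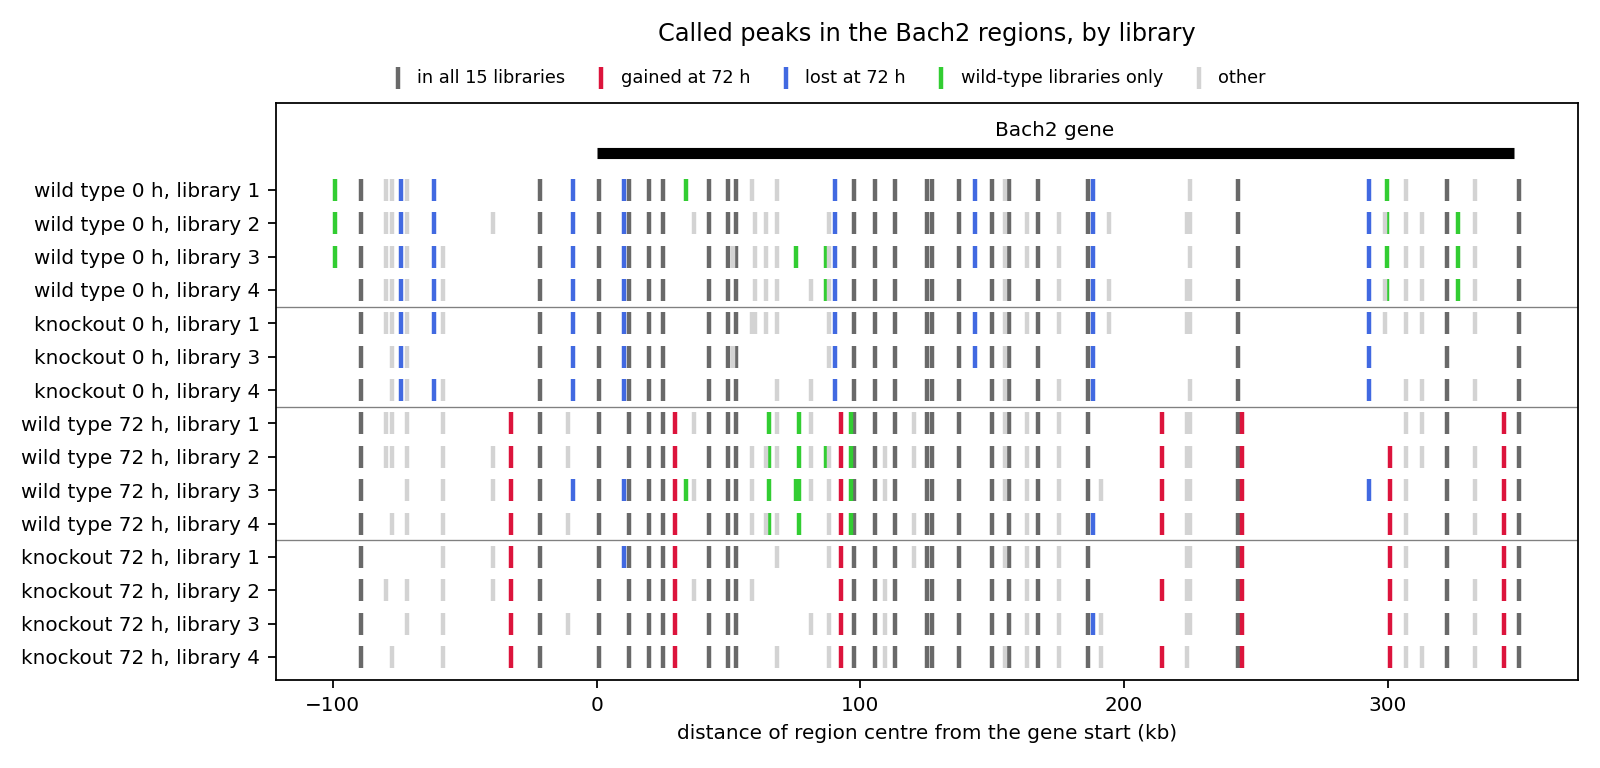
Called peaks in the 73 Bach2 regions along the locus (horizontal axis, kb from the gene start) in each of the 15 libraries (rows), with each tick 1 region called in that library. The 22 regions called in all libraries are dark, the 7 gained at 72 h red, the 8 lost blue, the 9 called in wild-type libraries alone green and the rest pale.

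Bach2 gained 7 regions and lost 8 with activation, by a two-sided exact test of how many libraries had a peak, with genotype as stratum and Benjamini-Hochberg adjustment over all 83743 regions (adjusted p under 0.05). Gains took 9.59% of the Bach2 regions, where 18.4% of all regions were gained, and losses took 11.0%, where 4.65% of all were lost. Of the other 58 Bach2 regions, 22 were called in every library, and 36 were neither called throughout nor gained nor lost. Called throughout were 30.1% of the Bach2 regions and 25.3% of all regions. With the strongest 29994 peaks of every library, which takes out the larger number of peaks at 72 h, 4 of 45 Bach2 regions were gained (8.89%) and 11 were lost (24.4%), where 14.8% of all regions were gained and 14.1% lost.

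The gained regions ran from the upstream gap to the 3′ end of the gene. Those at −32.4, +29.8, +92.8, +244.6 and +343.9 kb had a peak in all 8 activated libraries and in none of the 7 untreated ones (adjusted p = 0.00399 each in the exact test). The region at +300.8 kb was called in 3 wild-type and 4 knockout activated libraries (exact test, adjusted p = 0.0121), and that at +214.3 kb in 4 wild-type and 2 knockout (adjusted p = 0.0308, exact test). None of the 7 had a peak in a single 0 h library. The pooled untreated wild-type list did have a summit at +214.3 kb, with 31 fragments (0.318 per M). Within wild type alone, 9 regions were called in every 72 h and no 0 h library (14.3% of all regions) and 4 in the reverse (3.35%). Within knockout these counts were 6 (12.9%) and 4 (2.23%). Where the 7 gained regions were called they were low. The highest was at +92.8 kb (chr4:32330642-32331779), with 1.91, 2.54, 2.45 and 1.48 fragments per M at its summit in wild type and 1.87, 1.78, 1.75 and 2.29 in knockout at 72 h. The region at +29.8 kb (chr4:32267987-32268410) reached 1.46, 2.14, 2.22 and 1.01 in wild type and 1.47, 1.05, 1.24 and 1.08 in knockout. At both regions the heights of the 2 genotypes overlap. For scale, the lowest peak that any library called anywhere had a height of 0.318 to 0.402 fragments per M.

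The lost regions included 2 in the Gm42266 gene upstream and 1 on either side of the gene start. The regions at −74.1 kb, in Gm42266, and at +90.5 kb were called in 7 of 7 untreated and 0 of 8 activated libraries (adjusted p = 0.00399 each, exact test). The region at −61.5 kb, also in Gm42266, went from 6 untreated libraries to 0, and those at −8.9 and +292.9 kb from 7 to 1 (adjusted p = 0.0121 each, exact test). The other 3 losses, at +10.4 and +188.3 kb (7 untreated and 2 activated libraries each) and at +143.4 kb (5 and 0), had adjusted p = 0.0443 by the exact test. These 3 lost the call in 16 settings each, among them leaving out many single libraries, and leaving out any 1 of the 15 libraries left 5 or 6 losses in all. With peaks required to cover 0.5 of a region, 2 losses were left of 72 regions (2.78%), where 4.16% of all regions were lost, so the Bach2 share was then below that of the genome. The pooled 72 h lists still had a summit at +10.4 kb (1.51 fragments per M in wild type, 1.17 in knockout) and at +188.3 kb (1.19 and 1.05). They also had lower ones at −8.9 kb in both genotypes and at +292.9 kb in knockout, and none in the other lost regions.

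The lost regions had been of very different height. At −74.1 kb (chr4:32164158-32164510) the untreated heights were 1.52, 1.28, 2.35 and 1.58 fragments per M in wild type and 1.27, 0.880 and 1.27 in knockout. At +10.4 kb (chr4:32248218-32249360) they were 5.18, 5.03, 5.70 and 5.70 in wild type and 3.85, 2.07 and 4.77 in knockout, with peaks of 1.72 and 1.25 in the 2 activated libraries that had one. The region at +10.4 kb was thus among the taller parts of the locus at 0 h, and its few peaks at 72 h were below every untreated one. A gained and a lost region lay side by side at +90.5 and +92.8 kb: the lost one (chr4:32328564-32329320) had untreated heights of 1.56, 1.45, 1.78 and 1.94 in wild type and 1.31, 0.803 and 1.85 in knockout.

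Regions called in all 15 libraries have a height in each, so their change could be measured. Among these 22 Bach2 regions, 19 fell at 72 h, 1 rose and 2 did not pass the test, by limma on log2 heights per M with genotype as covariate (Benjamini-Hochberg over 21176 regions, adjusted p under 0.05). Over all 21176 regions 66.2% fell and 8.74% rose, beside 86.4% and 4.55% at Bach2. The median log2 change was −1.04 at Bach2 and −0.67 over all regions. With heights scaled by the median ratio instead, which takes out the shift of all regions, 12 Bach2 regions fell and 3 rose, where 36.7% of all regions fell and 35.9% rose. The group means fell in both genotypes at 19 regions and rose in both at 3. The limma fit assigned regions of like height the same spread, so intervals and the ranges of the libraries are given in place of very small p-values.

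**Figure D2:**
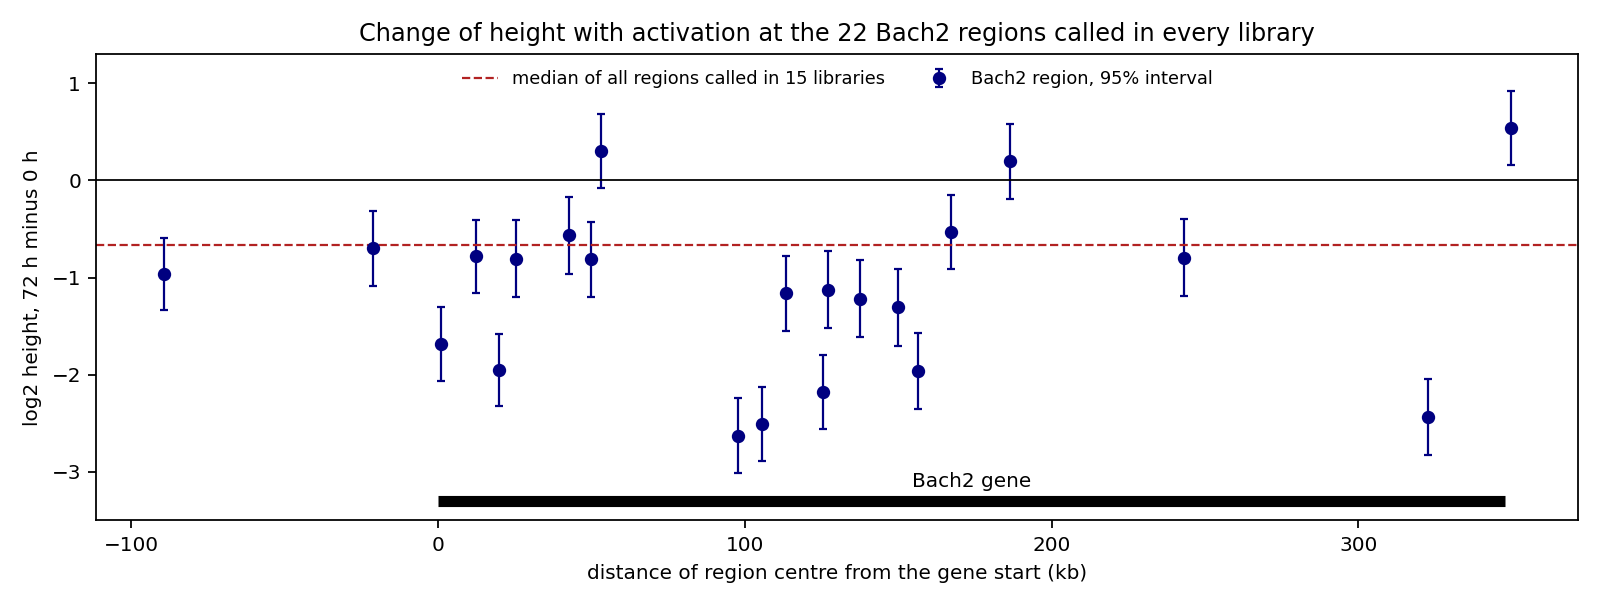
Change of height between 0 h and 72 h (vertical axis, log2 of fragments per M) at the 22 Bach2 regions called in every library, by distance from the gene start (kb), with 95% intervals from limma. The dashed line is the median of all 21176 such regions, −0.67; the falls at +97.7, +105.5, +125.4 and +322.6 kb lie well under it and the regions at +53.0, +186.4 and +349.8 kb lie above 0.

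The 2 largest falls were neighbours in the first part of the gene body. At +97.7 kb (chr4:32335303-32336993) the untreated heights were 9.46, 9.90, 10.9 and 12.5 fragments per M in wild type and 9.28, 4.93 and 10.4 in knockout. At 72 h they were 1.34, 1.71, 2.11 and 1.44 in wild type and 1.38, 1.78, 1.2 and 1.12 in knockout. Every activated library was below every untreated one, a 6.19-fold fall (log2 change −2.63, 95% interval −3.02 to −2.25).

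The next region, at +105.5 kb (chr4:32343116-32344685), behaved alike. Its untreated heights were 10.9, 10.7, 12.6 and 14.2 in wild type and 10.1, 4.74 and 13.1 in knockout. Its activated heights were 1.78, 2.14, 2.53 and 1.32 in wild type and 1.42, 1.86, 1.84 and 1.78 in knockout, again without overlap (5.69-fold lower, log2 change −2.51, interval −2.89 to −2.13). The fall at +125.4 kb was 4.54-fold (log2 −2.18, interval −2.56 to −1.80), and that at +156.4 kb, a lower peak, 3.89-fold (log2 −1.96, interval −2.35 to −1.57). In both the 2 times did not overlap.

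Near the other end of the gene, the region at +322.6 kb (chr4:32560313-32561650) lies inside Bach2os. Its untreated heights were 5.71, 7.03, 6.88 and 6.97 in wild type and 6.64, 3.33 and 6.33 in knockout. Its activated heights were 1.54, 0.907, 1.15 and 0.894 in wild type and 0.756, 1.53, 0.896 and 1.36 in knockout. All activated libraries were lower (5.42-fold, log2 change −2.44, interval −2.83 to −2.05).

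The gene start and the tallest region also fell. At the gene start (chr4:32238216-32240333) the untreated heights were 8.57, 8.62, 11.4 and 11.4 in wild type and 9.36, 4.36 and 10.4 in knockout. They were 2.72, 3.05, 2.72 and 2.57 in wild type and 2.67, 2.91, 2.65 and 2.43 in knockout at 72 h, 3.22-fold lower (log2 change −1.69, interval −2.06 to −1.31). The start therefore stayed called in every library at a lower height. The tallest region of the locus, at +19.8 kb (chr4:32257701-32258788), had untreated heights of 12.5, 13.0, 17.8 and 17.1 in wild type and 13.5, 6.01 and 15.9 in knockout. Its activated heights were 3.73, 3.19, 3.87 and 2.57 in wild type and 2.94, 3.63, 4.01 and 2.95 in knockout, 3.88-fold lower (log2 change −1.96, interval −2.33 to −1.58). At both regions the times did not overlap.

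**Figure D3:**
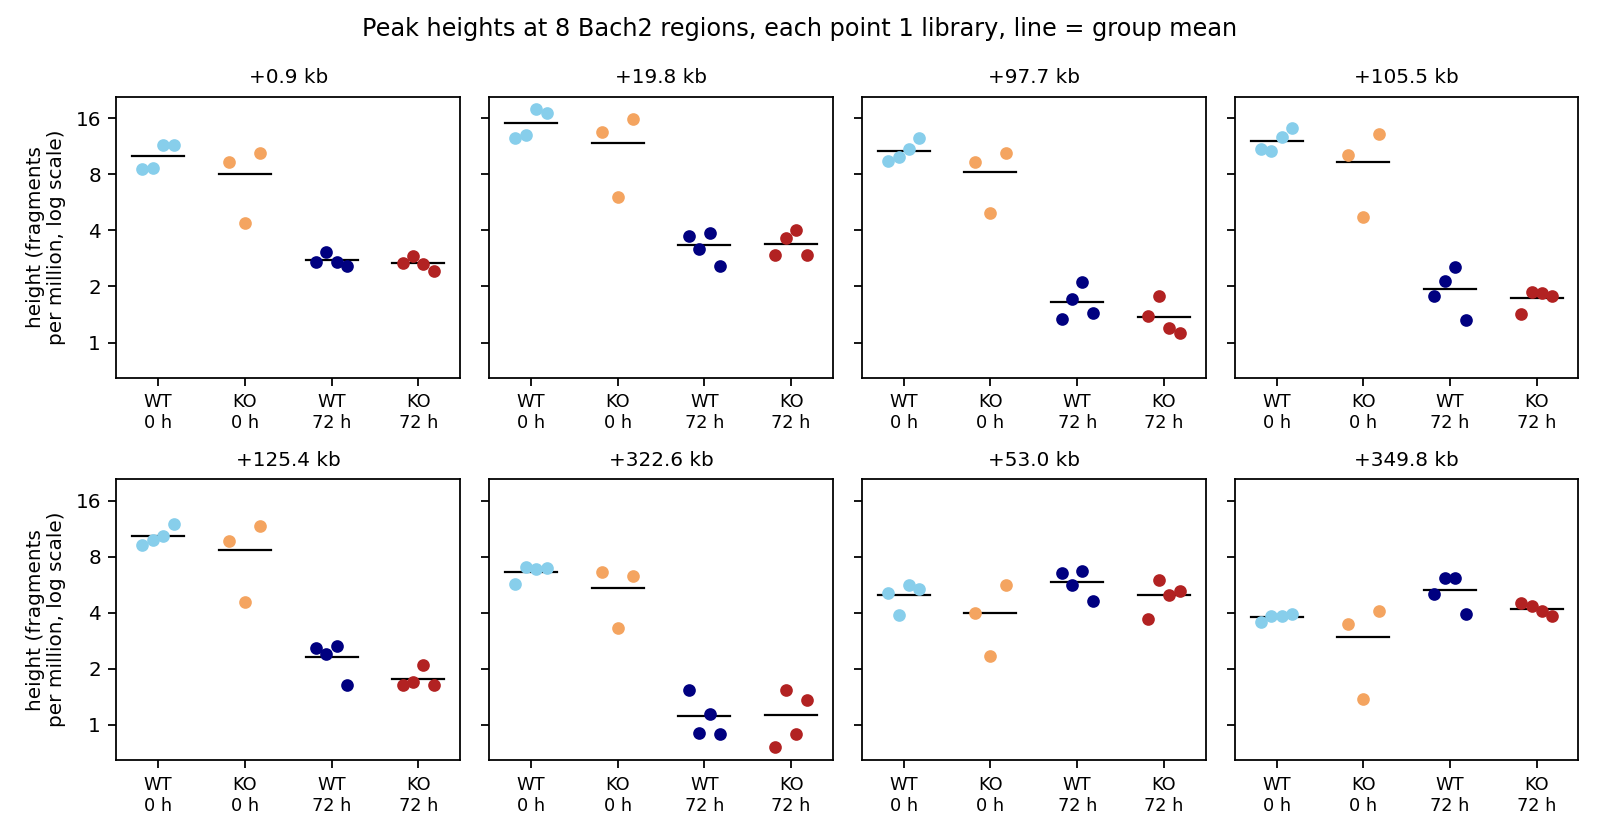
Peak height (vertical axis, fragments per M, log scale) at 8 Bach2 regions in each library, by genotype (WT wild type, KO knockout) and time, with the group mean as a line. At +0.9 kb (the gene start), +19.8, +97.7, +105.5, +125.4 and +322.6 kb every 72 h library is below every 0 h library, while at +53.0 and +349.8 kb the times overlap; the low point in each KO 0 h group is library 3.

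The other 12 falls, at −89.4, −21.3, +12.3, +25.3, +42.8, +49.8, +113.3, +127.0, +137.4, +150.0, +167.3 and +243.3 kb, were smaller, with log2 changes from −1.31 at +150.0 kb to −0.53 at +167.3 kb. All of these had group means lower at 72 h in both genotypes. With median-ratio scaling, which takes out the shift of all regions, 7 of these falls were not called. They were those at −21.3, +12.3, +25.3, +42.8, +49.8, +167.3 and +243.3 kb. Their scaled log2 changes ran from −0.15 at +49.8 kb to 0.14 at +167.3 kb.

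Complete separation of this kind, every 72 h library below every 0 h library, held at 7 of the 22 Bach2 regions and at 9.24% of all regions. The reverse separation held at none of the 22 and at 3.43% of all. Without knockout library 3 at 0 h, whose median height over the 22 regions was 2.2 against 4.15 and 4.97 in the other knockout libraries, 19 of the 22 separated, as did 61.4% of all regions. The same library was low over all always-called regions (median 1.80, against 3.85 and 4.38).

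A few regions went against the general fall. The region just past the 3′ end of the gene, at +349.8 kb (chr4:32587523-32588842), had untreated heights of 3.57, 3.83, 3.84 and 3.96 in wild type and 3.46, 1.38 and 4.09 in knockout. Its activated heights were 5.03, 6.13, 6.16 and 3.93 in wild type and 4.50, 4.36, 4.1 and 3.84 in knockout. It rose 1.46-fold (log2 change 0.54, interval 0.16 to 0.93, limma adjusted p = 0.00819), although the lowest activated libraries lie within the untreated range. Without knockout library 3 at 0 h the rise was 1.26-fold (log2 change 0.34, limma adjusted p = 0.00506). At +53.0 kb (log2 change 0.30, interval −0.08 to 0.68, limma adjusted p = 0.143) and at +186.4 kb (0.20, interval −0.19 to 0.58, adjusted p = 0.356 by limma) the call was not passed on the per-M scale, and without that library the log2 changes were 0.16 and 0.09. After median-ratio scaling these 3 were the Bach2 regions that rose, with log2 changes of 1.21, 0.97 and 0.86.

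A region at +306.8 kb (chr4:32544556-32545828), named after its values were seen, also went up and missed the set of 22 because knockout library 3 had no peak there at 0 h. Its untreated heights were 0.803, 0.759, 0.607 and 0.713 in wild type and 0.529 and 0.585 in knockout libraries 1 and 4. Its activated heights were 1.99, 2.50, 2.41 and 2.37 in wild type and 1.69, 2.02, 1.71 and 1.68 in knockout, all higher. The change without that library was 3.21-fold (log2 1.68, interval 1.37 to 1.99).

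In some regions the summit of the highest peak, the point of highest coverage, lay at a different place at 72 h than at 0 h. A merged region can hold several peaks. Whether a single summit shifted or a different peak became the highest was not tested. This measure was chosen after values had been seen and is a description. In 4 of the 22 regions the summits of the untreated and activated libraries occupied ranges that do not overlap, with medians at least 200 bp apart, which held for 2.22% of all 21176 regions. At +186.4 kb the summit lay 252 to 291 bp from the region's start at 0 h and 1037 to 1070 bp at 72 h. At +150.0 kb it lay at 435 to 592 bp and then at 1055 to 1316 bp. At −21.3 kb the order was the other way, with 1080 to 1106 bp at 0 h and 373 to 521 bp at 72 h. At +12.3 kb it lay at 610 to 877 bp and then at 959 to 1203 bp. Heights in these 4 regions therefore compare different points, and the nearly equal heights at +186.4 kb belong to summits 797.5 bp apart in the median. At the gene start and at +97.7 kb the median summits differed by 0.5 and 0.0 bp.

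**Figure D4:**
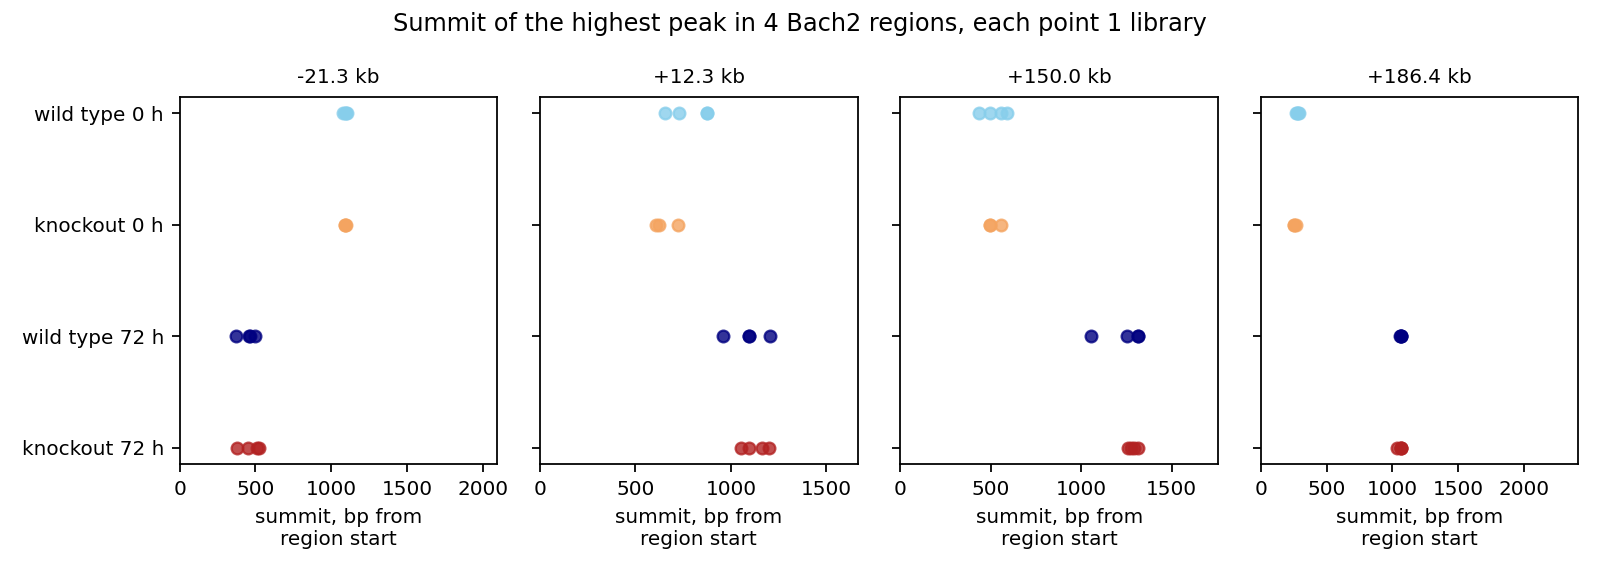
Position of the summit of the highest peak (horizontal axis, bp from the start of the region) in 4 always-called Bach2 regions, with 1 point per library and groups as rows. In each region the 0 h and the 72 h libraries occupy separate ranges and the genotypes lie together within a time.

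Between genotypes, Bach2 had 9 regions with a peak in at least 2 wild-type libraries and in no knockout library, and none with the reverse pattern. These counts took part in the choice of the gene. Among all regions 7.17% were wild-type-only and 1.51% knockout-only, and for Bach2 the wild-type-only share was 12.3%. By single-library calls, those of the 9 at −99.1, +299.7 and +326.5 kb had peaks at 0 h alone. Those at +65.2, +76.9 and +96.5 kb had them at 72 h alone. Those at +34.1, +75.6 and +86.9 kb had them at both times in single libraries or a pair. In the pooled untreated wild-type list, the peak of the +97.7 kb region (9.94 fragments per M) also reached into +96.5 kb. The pooled 72 h lists had a summit at +299.7 kb, with 0.363 per M in wild type and 0.308 in knockout. Activated wild-type libraries were deeper (26.0 M ± 1.2 fragments, SD, n = 4) than activated knockout ones (23.0 M ± 1.44, n = 4), and the part of depth in these counts was not tested. With the strongest 29994 peaks of every library, 1 of 45 Bach2 regions was wild-type-only, where 3.06% of all regions were.

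The regions that divide the genotypes at 72 h are weak and close together. That at +65.2 kb (chr4:32303321-32303986) had wild-type heights of 0.649, 0.544, 0.689 and 0.544, that at +76.9 kb (chr4:32315050-32315544) had 0.446, 0.690, 0.651 and 0.622, and that at +96.5 kb (chr4:32334737-32335118) had 0.770, 1.09, 1.23 and 0.894 fragments per M. None of the 4 activated knockout libraries had a peak in any of them, a split found at 0.462% of all regions. The reverse split held at 0 Bach2 regions and at 0.0299% of all. The pooled knockout libraries did have a summit in each, with 31 fragments (0.341 per M) at +65.2 kb, 30 (0.330) at +76.9 kb and 65 (0.716) at +96.5 kb. The pooled wild-type heights at 72 h were 0.50 and 0.51 at +65.2 and +76.9 kb. At +96.5 kb the pooled wild-type peak ran into the neighbouring region at +97.7 kb (1.64 per M) without a summit of its own. Pooled values are the authors' and have no replicate error. Coverage was thus measured there in the pooled knockout cells, although no single library had a call.

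**Figure D5:**
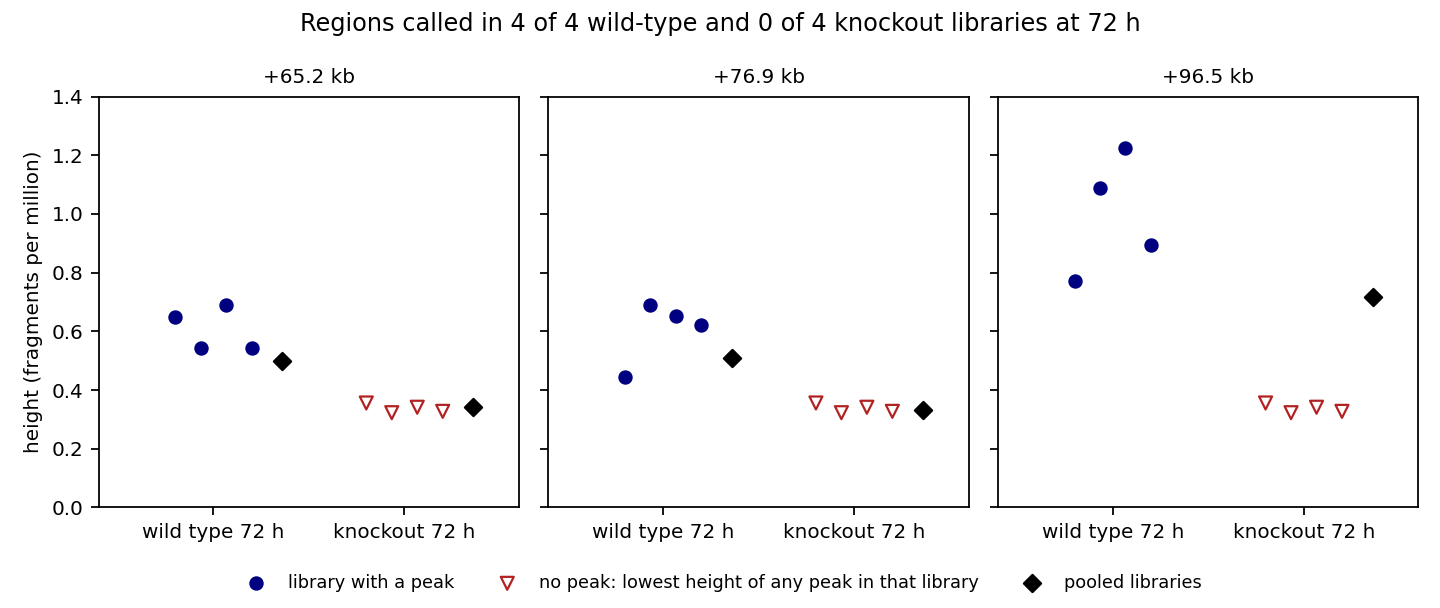
Height (vertical axis, fragments per M) at the 3 Bach2 regions called in all wild-type and no knockout libraries at 72 h. Filled points are libraries with a peak, open triangles give the lowest height of any peak in each knockout library, which had no peak there, and diamonds are the pooled lists; pooled knockout heights of 0.341 and 0.330 lie near the triangles and 0.716 above them.

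At 0 h the region at +299.7 kb (chr4:32537822-32538359) had wild-type heights of 0.580, 0.483, 0.607 and 1.03 and no peak in 3 of 3 knockout libraries, a split found at 0.39% of all regions, while the reverse held at 0 Bach2 regions and at 0.00478% of all. The tallest of the 9, at +326.5 kb inside Bach2os (chr4:32564624-32565229), had peaks of 1.79, 2.14 and 2.26 in wild-type libraries 2, 3 and 4. The pooled untreated knockout list also had a summit there, at 0.963 fragments per M against 1.86 in the pooled wild type. Across both times, 5 of the 9 regions had a summit in a pooled knockout list, at least 1 each, and none was in the authors' final knockout lists.

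Where every library had a peak, the height difference between genotypes at Bach2 was near that of the genome at both times. The median log2 difference of knockout from wild type over the 22 regions was −0.48 at 0 h and −0.25 at 72 h, beside −0.52 and −0.22 over all always-called regions. Without knockout library 3 the untreated medians were −0.09 at Bach2 and −0.12 over all. At the gene start the difference was −0.40 at 0 h and −0.05 at 72 h.

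Other genes of the resting state were set beside Bach2 with the same test. At Foxp1, a forkhead factor of the resting state, 9 of 95 regions were gained and 12 lost, and its always-called regions had a median log2 change of −0.47. Foxo1, which drives Il7r and Klf2 in resting T cells, gained 1 and lost 4 of 30, with a median of −1.29. Lef1 and Tcf7, the T cell partners of beta-catenin, gained 5 and lost 8 of 43, and gained 2 and lost 1 of 13, with medians of −0.80 and −1.62. The Bach2 median of −1.04 lay between these, and the differences between genes were not tested. The whole list of naive and quiescence genes other than Bach2 had regions at 19 of 20 genes (none at Vsir), with 43 gained and 57 lost of 437. Of its 131 always-called regions 100 fell and 7 rose, and with median-ratio scaling 68 fell and 34 rose. Over all kept regions 18.4% were gained and 4.65% lost. Of all always-called regions 66.2% fell and 8.74% rose (median log2 change −0.67), or 36.7% and 35.9% with that scaling. Beyond Foxp1 and Lef1, the most changes in this list were at S1pr1, the receptor for leaving the lymph node (7 gained, 3 lost), and Btg1, an antiproliferative gene (1 gained, 8 lost).

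Over 9 relatives, partners and competitors of BACH2, which share its DNA sites or bind with it, 7 of 69 regions were gained and 1 was lost. Of the 22 always-called regions of this list 15 fell and 1 rose by limma, with a median log2 change of −0.82. Jun, an AP-1 subunit, gained 5 of 15, Bach1, the close relative of Bach2, gained 2 of 21, and Fosl2, another AP-1 subunit, lost 1 of 6. The other members, Batf, Junb, Jund, Mafk, Mafg and Maff, had no gain or loss. Genes that BACH2 is known to restrain gained 20 and lost 3 of 95 regions. Ifng, the Th1 cytokine, gained 5 of 26, Prdm1, which encodes the repressor Blimp-1, gained 4 and lost 1 of 24, Ahr, the aryl hydrocarbon receptor, gained 3 and lost 2 of 9, and Gata3, the Th2 regulator, gained 3 of 16. The shares over all regions, 18.4% gained and 4.65% lost, are the background to these counts. Of the 18 always-called regions of the restrained genes 14 fell and 0 rose by limma. Over all always-called regions 66.2% fell and 8.74% rose, with a median log2 change of −0.67. With median-ratio scaling 10 fell and 7 rose among the relatives, partners and competitors, and 9 fell and 4 rose among the restrained genes. On that scale 36.7% of all regions fell and 35.9% rose.

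Across the 15 libraries, the genes whose log2 ratio of called share to that of all regions was most like that of Bach2 were Pced1b (Pearson r = 0.967), Bcl11b (0.963), Ankrd11 (0.957), Pik3r1 (0.954) and Susd1 (0.954), among 446 genes with at least 20 regions. Bcl11b encodes a factor needed for T cell identity and Pik3r1 a regulatory subunit of PI3 kinase. The points share libraries and fall into untreated and activated ones, so these values describe that split. On the chromosome, Map3k7 gained 4 and lost 0 of its 11 regions, and Gja10 had 1 region, neither gained nor lost.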

How the data were processed

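The authors' deposited peak lists were used: 15 for single libraries, 4 for pooled libraries and 4 final lists. Tools named in the submitters' processing notes are Trim Galore 0.5.0, Bowtie2 2.2.9 and HOMER 4.10.4, with mm10 as the build. MACS2 2.1.1.20160309 called peaks from read pairs without a control at a q value of 0.05, per the file headers. The deposited pileup is the coverage signal at a summit, the deposited fold is the ratio of pileup to local background, and the deposited −log10 p and q values and the score of the final lists are the authors'. The sources used here do not give how the final lists were chosen.

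Lists were merged by overlap of at least 1 bp into 111393 regions, and 27650 seen in 1 library were left out. Libraries carry the numbers of the sample titles. Per the file headers, untreated knockout libraries 3 and 4 came from alignments with those numbers but peak calling runs named 2 and 3, and wild-type library 4 from an alignment numbered 5. Height is the highest pileup per 1000000 filtered fragments, as the headers give them. Depth limits the calling of weak peaks. Presence was tested by the exact stratified test (smallest p 0.000408) and heights by limma 3.58.1 in R 4.3.3, on log2 values, in the 21176 regions called in all libraries. Genes came from a RefSeq table of GRCm38.p6. Both tests were also run on simulated data with large planted changes. Those data were not built to hold a library like untreated knockout library 3, so they do not show how the tests behave with it. Regions named are those gained, lost, wild-type-only, at the gene start, or always called with a limma call, the last given in full only for the largest changes; genes named are the 5 most like Bach2 and the 4 per list with the most changes. The alternatives are a −log10 q of at least 5, equal numbers of peaks, regions in at least 1 or 4 libraries, coverage of 0.5 of the region, 20 kb to the gene, Fisher's exact test, a replicate block, median-ratio scaling, a pseudocount of 0.5, a mean height of at least 1, and leaving out each library. The members and lists were chosen with earlier results of these data known.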

Additional observations from a re-analysis of the deposited data

Results flagged for a closer look

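In groups of 4 libraries, 4 of 75 checks found a library far from the other 3 by Dixon's criterion, and chance flags about 1 in 20. Activated knockout library 1 had 40 Bach2 regions called, where the other 3 had 42 each. At +125.4 kb, activated knockout library 3 had a height of 2.09 fragments per M, above the other 3. Untreated wild-type library 1 was the lowest of its group at +137.4 kb (2.81) and at +322.6 kb (5.71).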

How the results depend on the processing

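Counts of 7 gained and 8 lost regions came out as 4 gained and 11 lost with equal numbers of peaks, 5 lost with regions in at least 1 library, and 2 lost when peaks had to cover 0.5 of a region; the cause was not tested. The count of 9 wild-type-only regions became 14 at a −log10 q of at least 5 (with 1 knockout-only), 1 with equal numbers of peaks, 4 with regions in at least 4 libraries and 16 with coverage of 0.5. The log2 change of relative occupancy was −0.39 with at least 4 libraries and −0.57 with coverage of 0.5. Median-ratio scaling gave 3 height rises and 12 falls, and turned the falls at +42.8 and +167.3 kb to 0.10 and 0.14, neither called. Leaving out single libraries gave 6 to 7 gained, 5 to 6 lost, 7 to 13 wild-type-only and 0 to 1 knockout-only regions. It also gave 1 to 2 height rises, 18 to 19 falls, an occupancy change of −0.53 to −0.45 and 4 to 5 regions with summits apart. Complete separation of heights ranged from 7 to 19 regions, with 19 without knockout library 3 at 0 h; this range and that of the summits were chosen after seeing the data. Same-numbered libraries did not deviate together (r from −0.06 to 0.04), so numbers were not taken as pairs. A fit with the replicate block gave 0 gained and 0 lost regions (6 and 5 at an unadjusted p under 0.05, and none called over all regions, as its smallest p is 0.0156), and 1 height rise and 19 falls. Depth of 20.5 M to 29.0 M fragments limits calls of peaks near 0.4 fragments per M.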
